A study of Mus musculus with 4 samples.

Results

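Claudins are the membrane proteins that set what passes between epithelial cells at the tight junction, and 10 of them that are known from the kidney tubule, Cldn1, Cldn2, Cldn3, Cldn4, Cldn7, Cldn8, Cldn10, Cldn14, Cldn16 and Cldn19, were followed along the mouse nephron. They were chosen by symbol from the 27998 genes counted. Each symbol had 1 row, and all 10 were counted in all 4 libraries. The other 23 claudin genes of the files were not members.

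Some claudins form barriers and others form pores that let selected ions or water through. Each nephron segment carries its own set, and that set makes the proximal tubule leaky to salt and water, the thick ascending limb permeable to calcium and magnesium, and the collecting duct tight. In people, loss of CLDN16 or CLDN19 causes urinary wasting of magnesium and calcium.

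Single nuclei came from flash-frozen kidneys of C57BL/6 mice at postnatal week 22, in 2 libraries from losartan-treated mice and 2 from untreated mice. Losartan blocks the angiotensin II type 1 receptor. The labels give no dose, route, duration or sex. No label says that the libraries came from separate animals, so p-values measure the spread between these libraries, part of which may be technical.

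Losartan libraries 1 and 2 held 58820323 and 59078762 transcript counts (unique molecular identifiers, UMIs), and untreated libraries 1 and 2 held 42290414 and 54971880. Of 39654 nuclei, 36003 were kept, and 26305 of these fell into 17 classes of tubule, glomerular epithelium and urothelium named by markers. Median depth per library was 3363 to 4230.5 UMIs per nucleus, and any 2 libraries shared 21 to 29 barcodes. The libraries differed in what they held. Proximal tubule nuclei made up 50.7% and 39.6% of losartan libraries 1 and 2, against 32.3% and 22.6% of untreated libraries 1 and 2. Untreated library 1 had 8 principal cell nuclei and 4 nuclei of the second thin limb cluster, so levels there rest on 3 libraries. Losartan library 1 had 24 injured proximal tubule nuclei.

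The genes and their starts are given first, because neighbouring claudins differed in where they were found and because Cldn10 has separate starts. On GRCm38, Cldn16 spans chromosome 16, 26463135 to 26482765 (plus strand), and Cldn1 spans chromosome 16, 26356642 to 26371841 (minus strand). They lie 91.293 kb apart with no protein-coding gene between them. Cldn3 (chromosome 5, 134986214 to 134987472, plus strand) and Cldn4 (chromosome 5, 134945119 to 134946934, minus strand) lie 39.279 kb apart, also with none between. Cldn2 spans chromosome X, 139800828 to 139811386, and Cldn19 spans chromosome 4, 119255414 to 119262438, both on the plus strand. Cldn7 spans chromosome 11, 69964779 to 69967885 (plus strand), Cldn8 chromosome 16, 88560828 to 88563183 (minus strand), and Cldn14 chromosome 16, 93919031 to 94008837 (minus strand). Cldn10 spans chromosome 14, 118787908 to 118875489 (plus strand).

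RefSeq's promoter windows for GRCm38.p6, which run from 250 bases before to 50 bases after a start, held 14 windows for 9 of the 10 genes. Cldn10 had a pair of them, 67.079 kb apart. Known Cldn10 transcripts from separate first exons encode proteins that differ in charge selectivity. The counts here are per gene and do not tell the starts apart. The Cldn10 windows are printed for that reason, with those of Cldn16 and Cldn2, which were high in different classes. Capitals mark matches, on either strand, to the motifs searched, namely the TATA box (TATAAA), the CCAAT box (CCAAT), a short site of the kidney factor HNF1 (GTTAAT), the TFAP2 motif (GCCNNNGGC) and the grainyhead-like motif (AACCGGTT).
Cldn10, upstream start, chr14:118787621-118787920, plus strand: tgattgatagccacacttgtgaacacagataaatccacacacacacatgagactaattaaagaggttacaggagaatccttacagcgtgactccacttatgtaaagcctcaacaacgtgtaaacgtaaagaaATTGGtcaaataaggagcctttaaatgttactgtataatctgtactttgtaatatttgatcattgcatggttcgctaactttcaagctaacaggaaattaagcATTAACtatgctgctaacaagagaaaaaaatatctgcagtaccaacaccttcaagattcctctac
Cldn10, downstream start, chr14:118854700-118854999, plus strand: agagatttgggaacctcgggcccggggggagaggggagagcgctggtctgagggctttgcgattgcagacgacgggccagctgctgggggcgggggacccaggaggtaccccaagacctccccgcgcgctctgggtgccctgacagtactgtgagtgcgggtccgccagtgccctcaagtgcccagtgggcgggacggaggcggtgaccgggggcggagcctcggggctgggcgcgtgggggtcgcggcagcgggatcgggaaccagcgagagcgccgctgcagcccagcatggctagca
Cldn16, chr16:26462885-26463184, plus strand: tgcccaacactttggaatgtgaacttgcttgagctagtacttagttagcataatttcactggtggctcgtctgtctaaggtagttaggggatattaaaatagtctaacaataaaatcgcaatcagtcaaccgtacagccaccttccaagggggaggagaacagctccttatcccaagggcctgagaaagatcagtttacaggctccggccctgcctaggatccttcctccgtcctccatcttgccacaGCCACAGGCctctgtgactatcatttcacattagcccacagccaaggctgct
Cldn2, chrX:139800558-139800857, plus strand: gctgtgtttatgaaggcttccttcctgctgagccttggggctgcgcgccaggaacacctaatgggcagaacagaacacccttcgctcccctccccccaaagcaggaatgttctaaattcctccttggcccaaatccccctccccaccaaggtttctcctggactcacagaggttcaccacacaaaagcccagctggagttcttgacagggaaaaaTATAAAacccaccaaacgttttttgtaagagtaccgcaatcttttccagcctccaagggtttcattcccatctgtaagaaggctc
The upstream Cldn10 window had 36.0% G and C and the downstream window 72.0%. The upstream window held a CCAAT box and an HNF1 site, found in 37.4% and 7.10% of all 32851 windows, and the downstream window held none of the motifs. The Cldn2 window held the TATA box found in 13.6% of all windows, and the Cldn16 window a TFAP2 motif, found in 16.6%. The grainyhead-like motif was in none of the 14 claudin windows and in 0.146% of all windows. These are letter matches and say nothing about binding.

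Levels are CPM, the gene's UMIs over all nuclei of a class in a library, scaled to the total UMIs of those nuclei, and are given as mean ± SD over 4 libraries unless another n is named. They were compared between classes for each claudin, not between claudins. Of the 10 genes, 8 reached 10 CPM in some class. Endothelial and immune nuclei, taken here to lack these 10 genes, give the floor. In macrophage and dendritic or endothelial nuclei, whichever was higher, Cldn10 stood at 51.2 CPM and Cldn2 at 22.7 CPM, and the other 8 at 0 to 9.49 CPM. Class names come from markers and mean nuclei that resemble that cell type.

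**Figure D1:**
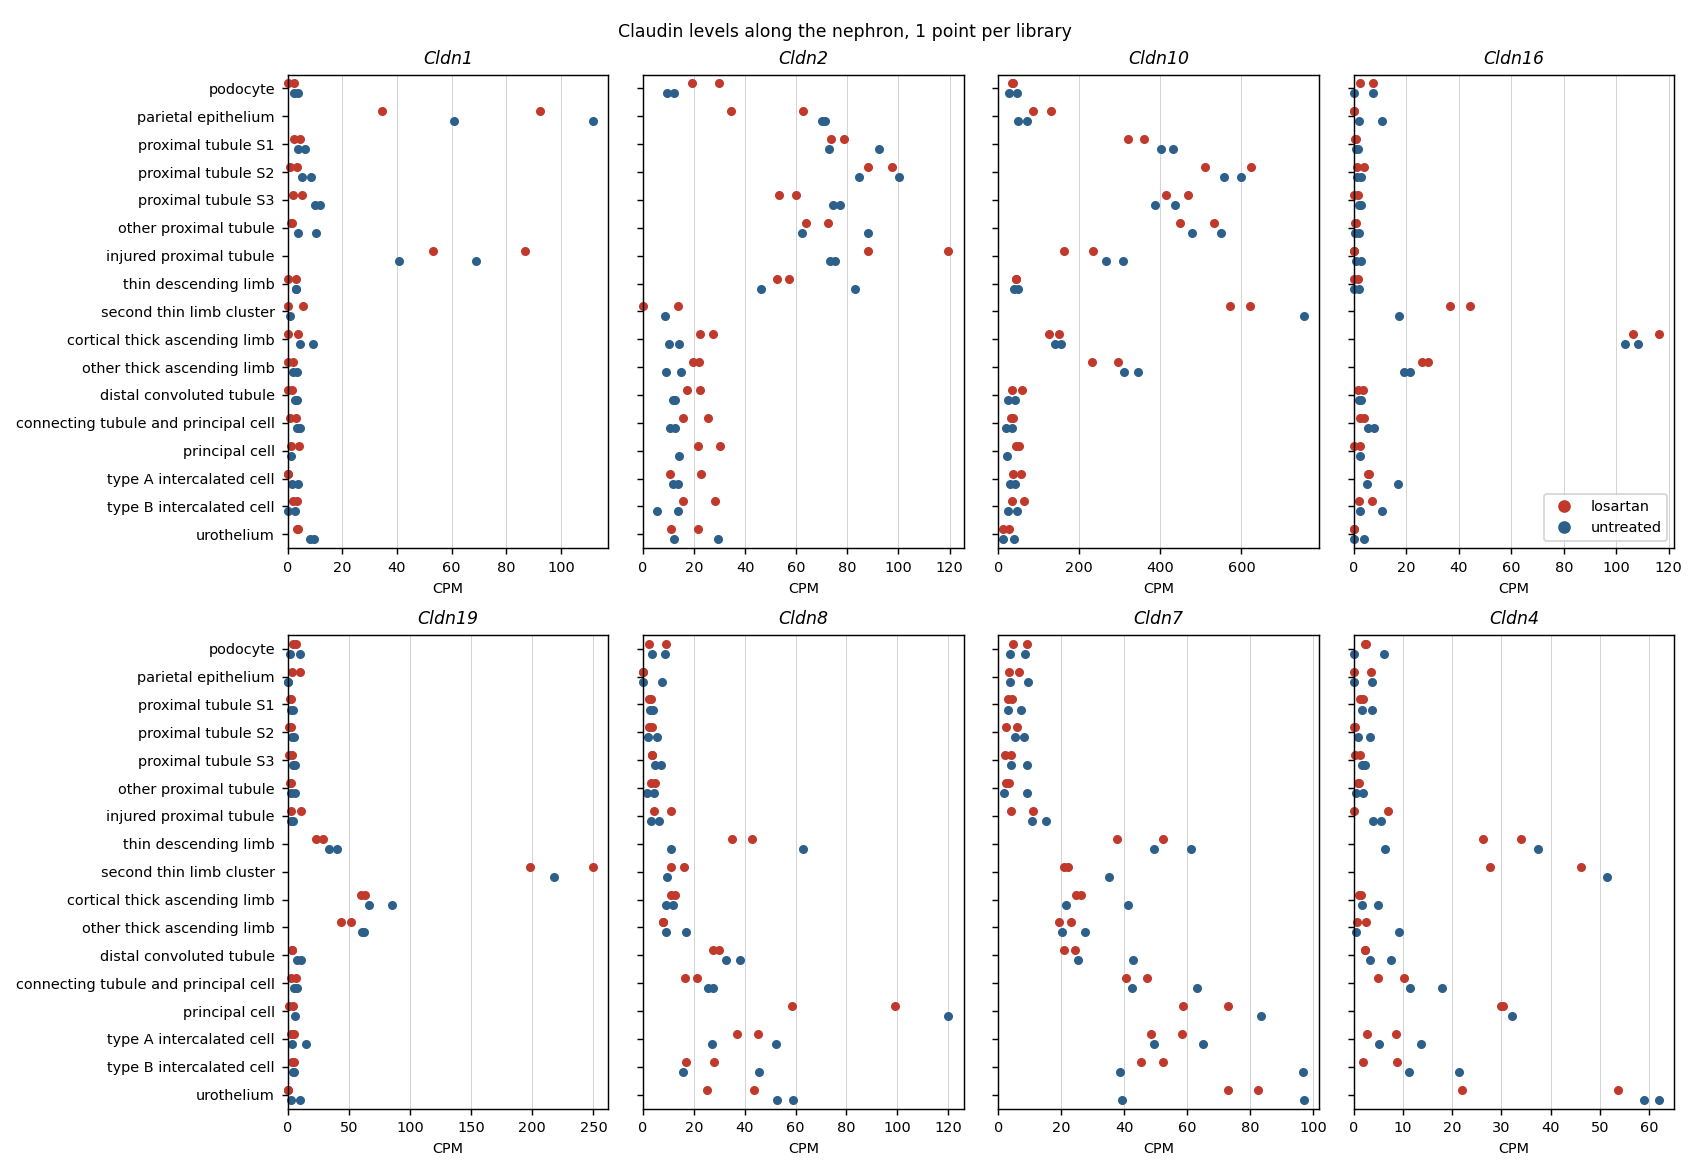
Level in CPM (horizontal axis) of 8 claudins in 17 classes (vertical axis), 1 point per library with at least 20 nuclei of the class, losartan above untreated. Cldn16 is highest in the cortical thick ascending limb, at 103 to 116 CPM, and Cldn8 in principal cells.

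Cldn2, the pore for sodium and water of the proximal tubule, marked all proximal tubule classes. Its level was 79.4 ± 9.04 CPM in S1, 92.7 ± 7.43 in S2 and 66.2 ± 11.5 in S3, the successive segments, and the S1 libraries overlapped those of both S2 and S3. It stayed at 59.8 ± 16.2 CPM in the thin descending limb and 59.6 ± 17.2 CPM in the parietal epithelium that lines Bowman's capsule. All other nephron classes were at 22.0 CPM or less, which is at or below the floor of 22.7 CPM. By detection, 12.1% ± 1.12 of S2 nuclei held a Cldn2 UMI after thinning each nucleus to 1500 UMIs, against 3.39% ± 0.972 of endothelial nuclei. Unthinned, the shares were 34.6% and 6.52%, at median depths of 3831 to 5555 UMIs in S2 and 2476 to 2878 UMIs in endothelial nuclei.

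Cldn10 was present along the whole proximal tubule as well. It stood at 624 and 511 CPM in S2 of losartan libraries 1 and 2, and at 598 and 558 CPM in untreated libraries 1 and 2. In S1 it stood at 319 and 361 CPM in losartan libraries 1 and 2 and at 430.0 and 403 CPM in untreated libraries 1 and 2. S2 was thus above S1 in all 4 libraries, by 1.39 to 1.95 times. In injured proximal tubule nuclei Cldn10 was 0.427 ± 0.113 of its S2 level, and lower in 4 of 4 libraries, while Cldn2 there was 89.1 ± 21.3 CPM and overlapped S2.

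Cldn1, a barrier-forming claudin, was found in the parietal epithelium and in injured proximal tubule. In the parietal epithelium it stood at 34.4 and 92.3 CPM in losartan libraries 1 and 2 and at 60.7 and 112 CPM in untreated libraries 1 and 2. In injured proximal tubule it stood at 86.9 and 53.1 CPM with losartan and at 40.6 and 69.0 CPM in untreated libraries. These classes overlapped each other. The next class, S3, was at 7.21 ± 4.41 CPM, and the libraries of the 2 classes did not overlap with it. The floor for Cldn1 was 8.75 CPM. The means of the other 15 nephron classes all lay under it.

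The thin limbs split into 2 classes with different claudins. The thin descending limb, named from markers such as the water channel Aqp1, had Cldn2 as given above, with Cldn7 at 50.1 ± 9.66 and Cldn8 at 38.0 ± 21.4 CPM. Cldn19 stood there at 23.3 and 28.7 CPM in losartan libraries 1 and 2, and at 33.6 and 40.4 CPM in untreated libraries 1 and 2. The second thin limb cluster, led by genes that include Kcnh7, Nrip3 and Sptssb, had Cldn2 at 7.47 ± 6.98 CPM (n = 3), below the floor. Its Cldn10 level was 649 ± 94.5 CPM, which was 13.1 to 19.7 times that of the thin descending limb in the 3 libraries. Its Cldn19 level was 249.7 and 198 CPM in losartan libraries 1 and 2 and 218 CPM in untreated library 2, without overlap with any other nephron class. Cldn16, by contrast, stood at 32.8 ± 14.1 CPM there.

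In the thick ascending limb, which takes up calcium and magnesium between its cells, Cldn16 and Cldn10 went opposite ways between the 2 classes. Cldn16, a subunit of the divalent cation pore, stood at 116 and 107 CPM in the cortical thick ascending limb of losartan libraries 1 and 2, and at 103 and 108 CPM in untreated libraries 1 and 2. In the other thick ascending limb nuclei it stood at 26.2 and 28.2 CPM with losartan and at 19.2 and 21.3 CPM in untreated libraries. The cortical level was 3.78 to 5.39 times the other, higher in 4 of 4 libraries. Cldn10 stood at 124 and 149 CPM in the cortical class with losartan and at 139 and 154 CPM in the untreated libraries. In the other class it stood at 232 and 294 CPM with losartan and at 345 and 309 CPM in untreated libraries. The cortical level was 0.402 to 0.534 of the other, lower in 4 of 4 libraries. Cldn19, the partner of Cldn16 in the pore, differed less, at 1.06 to 1.41 times the level of the other class. Gm12927 lies on the opposite strand at Cldn19, and no source says whether the counting used strand, so reads of the pair may be mixed.

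Cldn14, which blocks the Cldn16 and Cldn19 pore and is induced through the calcium-sensing receptor, gave 47 UMIs in all kept nuclei, 22 of them in the cortical thick ascending limb. The level there was 3.51 and 1.58 CPM in losartan libraries 1 and 2 and 1.76 and 3.71 CPM in untreated libraries 1 and 2. That was the highest class, and the groups overlapped. Gm49618 overlaps Cldn14 on the same strand, and no source says how reads shared by both genes were counted.

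To see whether the split lies within the classes, thick ascending limb nuclei were clustered again without claudin genes. Sub-cluster t1 (882 nuclei, 86.4% from the cortical class) was led by genes that include Tmem52b, Enox1, Foxq1 and the potassium channel gene Kcnj10. Sub-cluster t5 (952 nuclei, 92.9% from the cortical class) was led by genes that include Cemip and Dpp6. Cldn16 stood at 186 and 165 CPM in t1 of losartan libraries 1 and 2, and at 178 and 173 CPM in untreated libraries 1 and 2. In t5 it stood at 58.6 and 51.6 CPM with losartan and at 49.3 and 62.5 CPM in untreated libraries. Cldn10 ran the other way, at 53.2 and 62.3 CPM in t1 with losartan and 56.1 and 67.1 CPM in untreated libraries. In t5 it was at 206 and 261 CPM with losartan and 216 and 236 CPM in untreated libraries. In every library t1 had 2.77 to 3.61 times the Cldn16 and 0.239 to 0.284 of the Cldn10 of t5, while Cldn19 was 0.921 to 1.25 times its t5 level. The Cldn10 level of t1 was close to the floor of 51.2 CPM. These are descriptions of clusters made from the same nuclei, so no test was made.

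**Figure D2:**
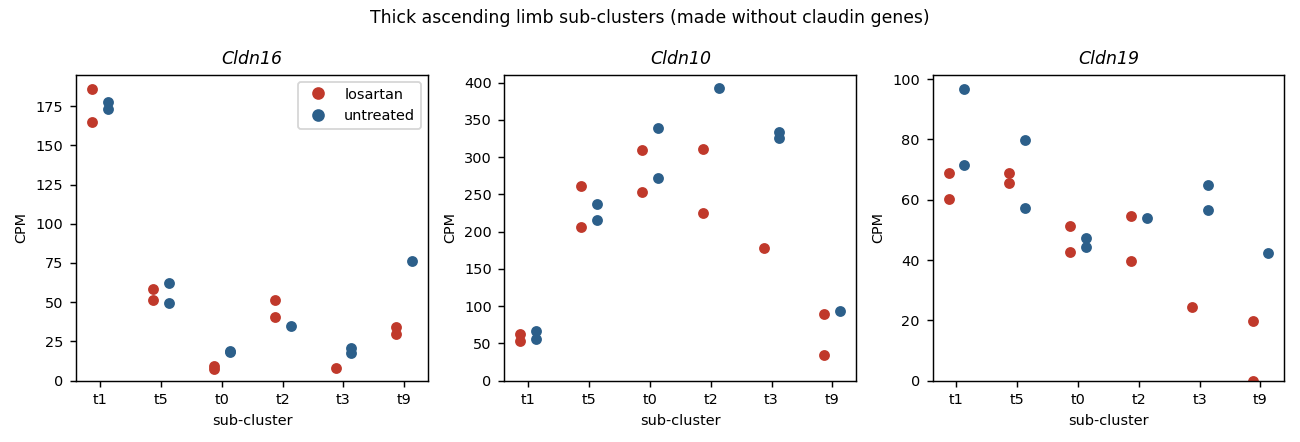
Level in CPM (vertical axis) of Cldn16, Cldn10 and Cldn19 in 6 sub-clusters of thick ascending limb nuclei (horizontal axis), 1 point per library with at least 20 nuclei, losartan left of untreated. Cldn16 is highest in t1, at 165 to 186 CPM, where Cldn10 is at 53.2 to 67.1 CPM.

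Sub-clusters t0 (830 nuclei), t2 (497) and t3 (617) lay in the other thick ascending limb class. They had Cldn10 at 294 ± 38.6, 309 ± 84.1 (n = 3) and 279 ± 87.6 CPM (n = 3), and Cldn16 at 13.5 ± 6.01, 42.2 ± 8.61 and 15.6 ± 6.70 CPM. The libraries were not spread evenly over them. Sub-cluster t3 took 6 and 28 nuclei from losartan libraries 1 and 2, against 261 and 322 nuclei from untreated libraries 1 and 2. Sub-cluster t4 (123 nuclei, 87.8% from the cortical class) took 1 and 2 nuclei from losartan libraries 1 and 2, against 52 and 68 from untreated libraries 1 and 2. Its Cldn19 level was 142 and 103 CPM in untreated libraries 1 and 2, above the other sub-clusters named here. Sub-cluster t9 (100 nuclei) had 4 of 6 macula densa markers in at least 10% of its nuclei, Nos1, Pappa2, Robo2 and Etv1. This macula densa-like group had Cldn19 at 0 and 19.9 CPM in losartan libraries 1 and 2 and 42.3 CPM in untreated library 2, from 7 UMIs. Its Cldn10 level was 72.2 ± 33.1 CPM and its Cldn16 level 46.7 ± 25.7 CPM (n = 3).

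Co-detection was then counted in single nuclei, at low detection. Each thick ascending limb nucleus was thinned to 1500 UMIs, which left out none. A Cldn16 UMI was found in 8.02% and 3.87% of nuclei with a Cldn10 UMI in losartan libraries 1 and 2, and in 3.19% and 3.54% in untreated libraries 1 and 2. Among nuclei without a Cldn10 UMI the shares were 9.30% and 10.0% with losartan and 9.10% and 9.82% in untreated libraries. The difference was -4.91 ± 2.42 percentage points (SD, n = 4) and was negative in 4 of 4 libraries. It was -1.28 points in losartan library 1 and from -6.28 to -5.91 points in the other libraries. All thick ascending limb nuclei and each class were thinned in separate random draws, 1 draw each. Nuclei of untreated library 2 with both UMIs numbered 8 in the draw of all nuclei and 12 in that of the cortical class. Values by library thus also vary with the draw. The pooled difference also holds the difference between the 2 classes. Within the cortical class it was -3.97 ± 2.35 points, from -6.98 to -1.29, and within the other class -1.33 ± 1.09 points, from -2.36 to -0.188. For Cldn19 by Cldn10 it was -0.405 ± 2.52 points over all thick ascending limb nuclei and -0.608 ± 2.49 points in the cortical class, both within the spread between libraries. In the other class it was -2.57 ± 0.645 points and negative in 4 of 4 libraries, from -2.98 to -1.62. That value rests on 41 nuclei with both UMIs in 1 draw. No other depth or filter was tried for that class. Unthinned, the share with Cldn16 was 13.3% ± 3.01 and 23.0% ± 4.01 in nuclei with and without Cldn10. As background, 0.439% ± 0.274 of thinned endothelial nuclei held a Cldn16 UMI and 7.25% ± 1.56 a Cldn10 UMI, against 17.1% ± 2.15 and 32.8% ± 5.33 for Cldn10 in the cortical and the other thick ascending limb class. The part of free RNA in Cldn10 detections was not tested. Median depth before thinning was 3056 to 4506 UMIs in the thick ascending limb classes.

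**Figure D3:**
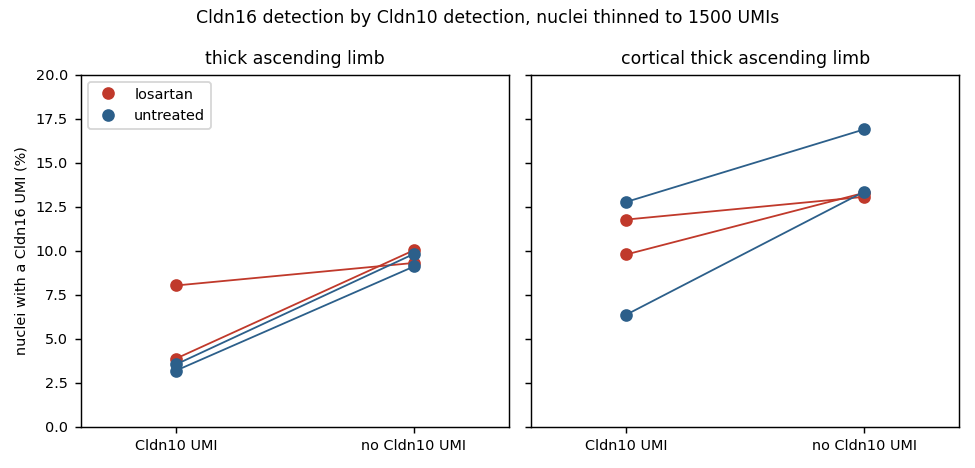
Share of thick ascending limb nuclei with a Cldn16 UMI in percent (vertical axis) among nuclei with and without a Cldn10 UMI (horizontal axis), 1 line per library. Nuclei were thinned to 1500 UMIs, in 1 random draw per panel. All lines rise to the right, in all thick ascending limb nuclei (left) and in the cortical class (right).

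Cldn8 and Cldn7 were highest in principal cells and urothelium, and Cldn4 in urothelium and the second thin limb cluster. All 3 were also found in the thin descending limb, but Cldn8 and Cldn4 were low there in untreated library 1. On edgeR's scale Cldn8 stood at 11.2 CPM in that library, near its floor of 9.30 CPM, against 37.5 to 66.2 CPM in the others. Cldn4 stood at 6.42 CPM, against 28.1 to 39.3 CPM. The same library had few nuclei of the principal cell and second thin limb classes, as given above, and a link was not tested. In the distal convoluted tubule Cldn8 was above its thick ascending limb level, at 32.0 ± 4.62 against 11.2 ± 1.48 CPM in the cortical class. Cldn7 was level with it there, at 28.4 ± 9.83 against 28.4 ± 8.74 CPM, and Cldn4, at 3.89 ± 2.54 CPM, was near its floor of 3.04 CPM. Cldn8, which bars sodium and potassium from leaking back and recruits Cldn4 to the junction, stood at 58.6 and 99.1 CPM in principal cells of losartan libraries 1 and 2 and at 120 CPM in untreated library 2. Urothelium, at 45.1 ± 14.7 CPM, overlapped with it. The principal cell level was 3.52 to 4.67 times the level of the mixed connecting tubule and principal cell class in 3 of 3 libraries. In the distal convoluted tubule, which fine-tunes salt and magnesium uptake, Cldn8 stood at 29.7 and 27.4 CPM with losartan and at 32.6 and 38.1 CPM in untreated libraries. After thinning, 11.2% ± 2.51 of principal cell nuclei held a Cldn8 UMI (n = 3), against 1.09% ± 0.482 of endothelial nuclei. Unthinned, the shares were 28.7% and 2.14%.

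Cldn7, a claudin of the distal nephron, was spread more widely. It was at 72.9 ± 24.5 CPM in urothelium, the lining of the renal pelvis, at 71.6 ± 12.5 in principal cells (n = 3), and at 58.2 ± 26.2 and 55.2 ± 7.82 CPM in type B and type A intercalated cells, which secrete base and acid. Neighbouring classes in this order overlapped down to the cortical thick ascending limb at 28.4 ± 8.74 CPM. In the proximal tubule it was at 4.77 ± 2.45 CPM, under the floor of 9.49 CPM.

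Cldn4, which with Cldn8 forms the chloride path of the collecting duct, had 49.1 ± 18.5 CPM in urothelium, 41.8 ± 12.4 in the second thin limb cluster (n = 3), 30.8 ± 1.19 in principal cells (n = 3) and 26.0 ± 13.9 in the thin descending limb. Next came the mixed connecting tubule class at 11.2 ± 5.39 CPM. Neighbours in this order overlapped. Cldn3, a barrier claudin, reached at most 8.41 ± 2.56 CPM (second thin limb cluster, n = 3), against a floor of 3.21 CPM. Wbscr25 lies on the opposite strand at Cldn3, and reads of the pair may be mixed.

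The genes most like each claudin were sought over the means of 23 classes, as Pearson's r of log2(CPM + 5), as a description with no test. Classes share libraries and free RNA. Cldn19 was like Sim2 (r = 0.947) and Sgcz (0.881), and Cldn16 like Nsg2 (0.831), Sostdc1 (0.798) and Gm14002 (0.778). Between Cldn16 and Cldn19, r was 0.785. Cldn8 was most like Tjp3, which encodes the junction scaffold ZO-3 (0.889), Gm16136 (0.884) and Rgs11 (0.882), and Cldn7 and Cldn8 reached 0.892 with each other. Cldn7 was most like AI661453 (0.942), the grainyhead-like factor gene Grhl2 (0.931) and AA986860 (0.922). Cldn4 was most like the keratin gene Krt18 (0.939), the epithelial factor gene Elf3 (0.926) and Atp10b (0.920). Cldn2 was most like Bdh2 (0.958), Gria3 (0.952) and Galnt14 (0.937). Cldn10 was most like Lyrm4 (0.870), Gm15890 (0.861) and the transporter gene Slc22a4 (0.858). Cldn1 was most like Stc2 (0.942), Lrrc9 (0.930) and the complement gene C3 (0.922), and the genomic neighbours Cldn1 and Cldn16 had an r of -0.230.

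The second question was whether the claudins differed between losartan and untreated kidneys within a class. Counts were summed per library and class, fitted with edgeR's quasi-likelihood test over all genes of the class, and adjusted by Benjamini-Hochberg (BH); adjusted p under 0.05 is a call. Each of 9 classes had 50 nuclei or more per library. They gave 46 claudin-by-class tests, and 0 were called. Over all genes in these classes 0.183% of tests were called. At an unadjusted p under 0.05 there were 8 of 46 (17.4%), against 8.78% of all tests, and DESeq2 called 0. Of the 46, 14 were higher and 32 lower with losartan, with a median log2 change of -0.27. The medians over all genes of a class ran from -0.015 (type B intercalated cells) to 0.0061 (type A intercalated cells). Libraries of the groups did not overlap in 19 of 46 (41.3%, against 38.5% of all tests). Losartan libraries lay wholly below untreated in 15 of 46 (32.6%, against 19.7% of all tests) and wholly above in 4 (8.70%, against 18.8%). The 46 tests share 4 libraries and are not independent, and some lie at or below the floor. In the proximal tubule as a whole Cldn1, Cldn3, Cldn4, Cldn7, Cldn8, Cldn16 and Cldn19 were below their floors in every library. All of these had a log2 change below 0, and Cldn1, Cldn3, Cldn16 and Cldn19 were among the 15. In S3 alone Cldn3 was above its floor of 3.21 CPM, at 6.50 ± 0.822 CPM, with a log2 change of 0.13. Cldn1 in S3 was above its floor in untreated libraries 1 and 2, at 11.3 and 9.78 CPM on edgeR's scale. Among the 4 above, Cldn2 in the thick ascending limb, distal convoluted tubule and connecting tubule class lay around or below its floor. Fold changes below are log2, losartan over untreated, with standard errors, and levels beside them are CPM on edgeR's scale.

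**Figure D4:**
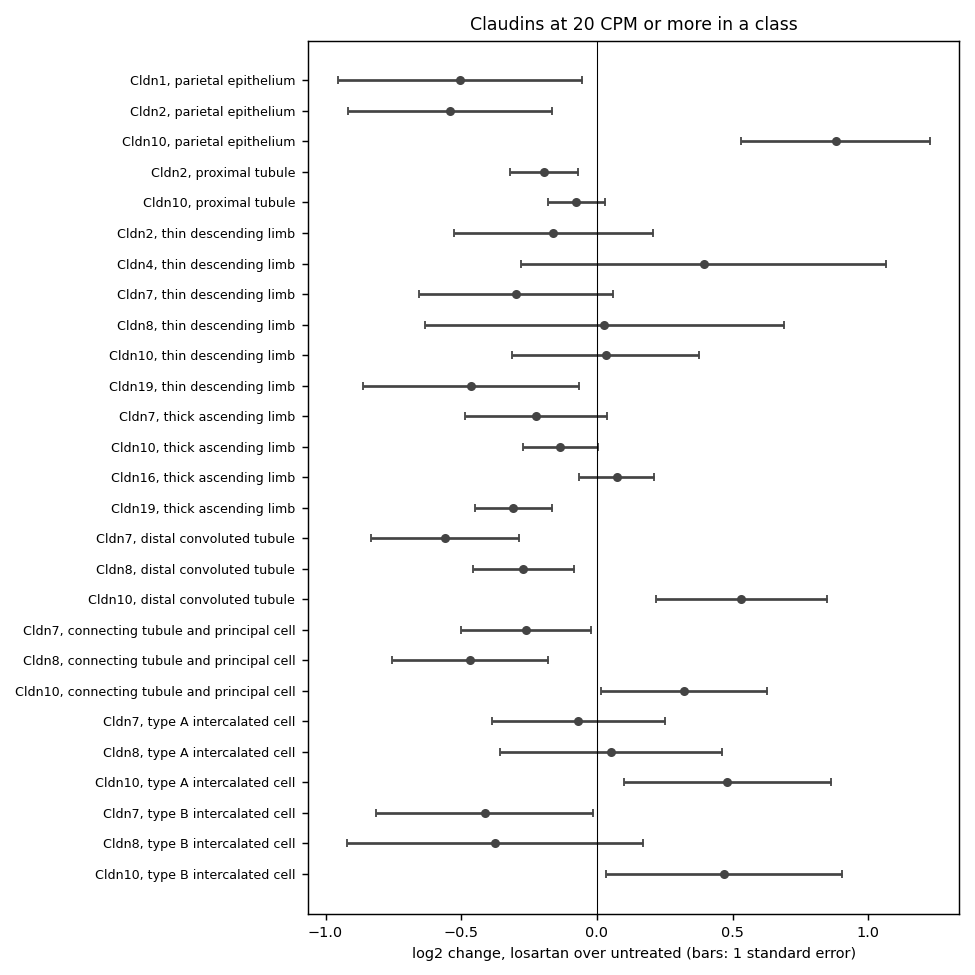
Log2 change, losartan over untreated (horizontal axis; bars are 1 standard error), for the 27 claudin-by-class pairs at 20 CPM or more in 8 of the classes (vertical axis). Values run from -0.56 to 0.88, 10 above 0 and 17 below, and none was called.

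In the proximal tubule, Cldn10 stood at 431 and 479 CPM in losartan libraries 1 and 2, against 493 and 465 CPM in untreated libraries 1 and 2. The groups overlapped (-0.08 ± 0.11, edgeR adjusted p = 0.819). In S1 alone Cldn10 was lower in both losartan libraries (-0.24 ± 0.13, adjusted p = 0.556), and in S3 higher in both (0.18 ± 0.13, adjusted p = 0.839). The make-up of the class differed between groups. Nuclei of no single segment numbered 2344 and 1366 in losartan libraries 1 and 2, against 321 and 212 in untreated libraries 1 and 2, and S2 nuclei numbered 243 and 603 with losartan, against 1019 and 923 untreated. Of the 2344, 1303 came from a single cluster. That cluster held 23 nuclei of losartan library 2 and 4 and 1 nuclei of untreated libraries 1 and 2. Cldn2 stood at 68.6 and 74.9 CPM with losartan and at 74.2 and 90.1 CPM untreated (-0.20 ± 0.13, adjusted p = 0.579). Cldn1, near its floor here, stood at 1.59 and 3.59 CPM with losartan and at 8.09 and 6.42 CPM untreated (-1.50 ± 0.41, adjusted p = 0.272). Injured proximal tubule nuclei, which have the higher Cldn1 level and are a class apart that is not in this sum, numbered 24 and 135 in losartan libraries 1 and 2 and 406 and 454 in untreated libraries 1 and 2. The edgeR test called 0% of genes in the proximal tubule.

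In the thick ascending limb, where 0.295% of all genes were called, no claudin of the divalent cation pore was called. Cldn16 stood at 72.9 and 64.4 CPM in losartan libraries 1 and 2, against 61.6 and 68.7 CPM in untreated libraries 1 and 2. The groups overlapped (0.07 ± 0.14, adjusted p = 0.932). Cldn19 stood at 58.5 and 52.0 CPM with losartan and at 72.5 and 64.0 CPM untreated, lower in both losartan libraries (-0.31 ± 0.14, adjusted p = 0.538). The spread of nuclei over sub-cluster t4, given above, moved with this value, and its part was not tested. Cldn10 stood at 181 and 235 CPM with losartan and at 235 and 222 CPM untreated (-0.13 ± 0.14, adjusted p = 0.849). The cortical class alone gave 0.11 ± 0.14 for Cldn16, -0.26 ± 0.17 for Cldn19 and -0.07 ± 0.14 for Cldn10, with adjusted p of 0.842, 0.638 and 0.915, in a class where 1.14% of genes were called. In the other thick ascending limb class Cldn16 was higher in both losartan libraries (0.49 ± 0.25). Cldn19 (-0.32 ± 0.19) and Cldn10 (-0.25 ± 0.15) were lower in both. Their edgeR adjusted p were 0.759, 0.830 and 0.827, in a class where 20 of 11463 genes were called. In 5 finer classes of proximal tubule and thick ascending limb, 0 claudins were called, against 0.318% of all tests. Cldn1 in S3 became a call without a filter (-1.45, edgeR adjusted p = 0.00651). Cldn14 passed the low-count filter in no class, and in the whole kidney it had -0.64 ± 0.47 (adjusted p = 0.462).

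The smallest p among the 46 tests belonged to Cldn2 in the thick ascending limb. It stood at 24.0 and 22.5 CPM in losartan libraries 1 and 2 and at 14.3 and 9.69 CPM in untreated libraries 1 and 2 (0.95 ± 0.24, adjusted p = 0.196). These levels lie around the floor measured in endothelial and immune nuclei. The share of UMIs from 110 proximal tubule genes moved with it, at 0.464% and 0.398% in the cortical class with losartan and 0.369% and 0.179% untreated. Its part in the Cldn2 value was not tested, and without the 10% of nuclei richest in those genes the change was 0.83. The change was 1.26 without untreated library 1 and 0.70 without untreated library 2. In the cortical class alone Cldn2 had 1.06 ± 0.28 (edgeR adjusted p = 0.128), a call without a filter (edgeR adjusted p = 0.0443). Without untreated library 1 it was 1.29 there. Cldn2 was also higher in both losartan libraries, with no overlap and no call, in the distal convoluted tubule (0.74 ± 0.25, adjusted p = 0.357) and the connecting tubule and principal cell class (0.84 ± 0.36, adjusted p = 0.483). The share of UMIs from proximal tubule genes moved there too, at 0.395% and 0.422% with losartan and 0.360% and 0.152% untreated in the distal convoluted tubule.

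In the distal convoluted tubule, where 0.256% of genes were called, Cldn8 stood at 30.3 and 28.0 CPM with losartan and at 32.2 and 38.0 CPM untreated (-0.27 ± 0.19, adjusted p = 0.737). Cldn7 stood at 21.4 and 25.0 CPM with losartan and at 25.1 and 42.7 CPM untreated (-0.56 ± 0.27, adjusted p = 0.586). Without untreated library 1 it was -0.88, and without untreated library 2 it was -0.11. Cldn10 there, around its floor, had 0.53 ± 0.32 (edgeR adjusted p = 0.678), and 0.91 without untreated library 1. Without losartan library 2 it was 0.05, and without untreated library 2 it was 0.22. Cldn19 stood at 3.49 and 3.84 CPM with losartan and at 10.9 and 7.60 CPM untreated (-1.31 ± 0.38, edgeR adjusted p = 0.281). Its change was -1.55 without untreated library 2. Its floor was 4.84 CPM.

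In the connecting tubule and principal cell class, where 0.43% of genes were called, Cldn7 stood at 41.3 and 48.3 CPM with losartan and at 42.7 and 63.9 CPM untreated. The groups overlapped (-0.26 ± 0.24, adjusted p = 0.835). Cldn8 stood at 17.02 and 21.7 CPM with losartan, below the 25.5 and 27.9 CPM of untreated libraries (-0.47 ± 0.29, adjusted p = 0.686). Cldn4 stood at 10.5 and 5.0 CPM with losartan and at 11.5 and 18.2 CPM untreated (-0.94 ± 0.45, adjusted p = 0.549). Cldn3 stood at 4.05 and 1.67 CPM with losartan and at 8.92 and 11.7 CPM untreated (-1.82 ± 0.55, adjusted p = 0.233). In type A and type B intercalated cells, Cldn7 had -0.07 ± 0.32 and -0.41 ± 0.40, with adjusted p of 0.999 and 0.914. Of all genes, 0.0134% and 0.0271% were called there. In podocytes, where 0.214% of genes were called, the filter left Cldn10 alone (0.01 ± 0.39, adjusted p = 0.997). In the thin descending limb, with 0% of genes called, Cldn19 had -0.46 ± 0.40 and Cldn4 0.39 ± 0.67.

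In the parietal epithelium, Cldn1 had -0.51 ± 0.45 (adjusted p = 0.799) and Cldn2 -0.54 ± 0.38 (adjusted p = 0.721). Cldn10 stood at 145 and 94.8 CPM with losartan and at 79.4 and 54.9 CPM untreated (0.88 ± 0.35, adjusted p = 0.438). The share of UMIs from proximal tubule genes in these nuclei was 1.22% and 0.844% with losartan and 0.497% and 0.356% untreated, and its part was not tested. In the parietal epithelium 0.444% of genes were called.

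In the sum of all kept nuclei, edgeR called 0% of genes and 0 of 10 claudins, with 5 of 10 at an unadjusted p under 0.05 (of all 18410 genes, 4038). Cldn19 stood at 9.28 and 9.59 CPM in losartan libraries 1 and 2, below the 14.8 and 15.5 CPM of untreated libraries 1 and 2 (-0.68 ± 0.12, adjusted p = 0.110). Cldn3 had -1.0 ± 0.21 (adjusted p = 0.121) and Cldn1 -1.40 ± 0.35 (adjusted p = 0.137). Cldn2, at 58.9 and 55.5 CPM with losartan and 47.8 and 42.0 CPM untreated, had 0.35 ± 0.11 (adjusted p = 0.169), and Cldn10 had 0.42 ± 0.15 (adjusted p = 0.213). DESeq2 called Cldn19, Cldn3 and Cldn1, with adjusted p of 0.0104, 0.0223 and 0.00328. It called 1597 of 17190 genes in this sum. In a whole-kidney sum, fewer cells of a type and less RNA per cell cannot be told apart. The shares of proximal tubule nuclei given above moved with these values. Injured proximal tubule nuclei, a class with high Cldn1, made up 0.266% and 1.44% of losartan libraries 1 and 2. In untreated libraries 1 and 2 they made up 4.73% and 5.03%. Cldn1 in the sum stood at 2.58 and 5.20 CPM with losartan and at 9.73 and 10.8 CPM untreated. The part of these shares was not tested.

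Whether losartan effects differed between classes was tested directly for 3 pairs of classes, with library as a block, and 0 claudins were called. Of all genes, 0.00648% were called for proximal tubule and thick ascending limb, 0.137% for thick ascending limb and distal convoluted tubule, and 0.278% for distal convoluted tubule and the connecting tubule class. At an unadjusted p under 0.05, the log2 effect on Cldn2 was -1.16 ± 0.27 in the proximal tubule relative to the thick ascending limb (edgeR adjusted p = 0.223), that on Cldn16 -0.94 ± 0.31 (adjusted p = 0.380) and that on Cldn19 -0.57 ± 0.23 (adjusted p = 0.476). Between the thick ascending limb and the distal convoluted tubule the difference was -0.66 ± 0.20 for Cldn10 (adjusted p = 0.345) and 1.01 ± 0.37 for Cldn19 (adjusted p = 0.516). Without untreated library 1 the difference was -1.56 for Cldn2 and -0.99 for Cldn10. Without untreated library 2 it was -0.76 and -0.37. DESeq2 was not run on these differences. Each of them rests partly on levels around or below the floor. Proximal tubule Cldn16 and Cldn19 were below their floors of 3.46 and 4.84 CPM in every library. Thick ascending limb Cldn2 and distal convoluted tubule Cldn10 and Cldn19 lay around theirs.

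The surrounding genes were counted in the same fits, over the same 9 classes. Of 116 tests on claudin regulators, 1 was called, higher with losartan (0.0931% of all tests were higher calls), and 0 of 202 on tight junction partners, 0 of 19 on other claudins and 0 of 101 on ion transport genes of the thick ascending limb were called. At an unadjusted p under 0.05 there were 14, 19, 1 and 8 (12.1%, 9.41%, 5.26% and 7.92%, against 8.78% of all tests). DESeq2 called 3 over these lists, and 582 over all genes of the 9 classes. Their median log2 changes were 0.07, -0.07, 0.03 and 0.05. The call was Casr, the calcium-sensing receptor that acts on Cldn14, in connecting tubule and principal cell nuclei. It rose to 95.6 and 98.4 CPM in losartan libraries 1 and 2, against 54.1 and 42.6 CPM in untreated libraries 1 and 2 (1.01 ± 0.18, adjusted p = 0.0459). It was no call without losartan library 1 (adjusted p = 0.269), without losartan library 2 (0.118) or by DESeq2 (0.115), nor without the nuclei richest in proximal tubule genes (0.0606) or highest in doublet score (0.0863).

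The list genes with the smallest p in each direction gave the following. In the thick ascending limb these were the vitamin D receptor gene Vdr (0.56) and the ubiquitin ligase scaffold gene Cul3 (0.31), and, lower, the junctional adhesion gene Cxadr (-0.34). Their adjusted p lay between 0.236 and 0.393. In the distal convoluted tubule they were the kinase gene Wnk1 (0.52, adjusted p = 0.0998) and the polarity gene Mpp5 (0.36, adjusted p = 0.306), and, lower, Cxadr (-0.42, adjusted p = 0.343) and the cingulin gene Cgn (-0.36, adjusted p = 0.637). In the connecting tubule class, beside Casr, they were the sodium pump subunit gene Fxyd2 (0.54, adjusted p = 0.235), and, lower, Cnnm2, known for magnesium handling (-0.36, adjusted p = 0.555), and the kinase gene Sgk1 (-0.40, adjusted p = 0.621).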

How the data were processed

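Raw UMI counts were deposited per gene and barcode; per the file headers Cell Ranger 5.0.0 wrote them, and the submitters' processing notes name mm10 and Bowtie 0.12.2 without a role. The deposited counts were used unchanged.

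Nuclei needed 500 UMIs, 300 genes and at most 10% mitochondrial UMIs. Scrublet (scanpy 1.11.5) scored doublets; its automatic threshold was used in untreated library 1, and elsewhere a share of 0.8% for each 1000 nuclei was taken from the top; 3171 nuclei went in all. Leiden clustering (igraph 0.11.9, resolution 1), on 3000 variable genes with all claudins left out, gave 38 clusters. Of these, 29 were named from 30 marker sets, and 9 with 2665 nuclei stayed unnamed. The naming limits were set after the data were seen, and the members and gene lists were chosen with earlier results of these data known.

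Sums per class and library were tested with edgeR 4.0.16 (TMM, filterByExpr, BH over all genes), tested on simulated data. DESeq2 1.42.0, other filters, nuclei and libraries were alternatives. All 10 members, the 3 genes most like each, called list genes and, in 3 classes, the 2 smallest p per direction were named, except for 2 genes that are not reported here.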

Additional observations from a re-analysis of the deposited data

How the results depend on the processing

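The number of claudin-by-class calls, 0 of 46, stayed at 0 with DESeq2 size factors, the DESeq2 test, no filter, fewer proximal-rich or doublet-like nuclei and a 1000 UMI minimum, which removed no nucleus. It ranged from 0 to 3 when a library was left out, with 3 calls without untreated library 1 and 1 without untreated library 2. Whole-kidney claudin calls were 3 by DESeq2, which called 1597 of 17190 genes there. With the library number as a replicate block there were 2 claudin calls in classes, both in the thick ascending limb. These were Cldn2 (0.97, edgeR adjusted p = 0.00160) and Cldn1 (-1.63, adjusted p = 0.0410), both at or around their level in endothelial and immune nuclei. The block called 863 of 13233 genes in that class. In the whole kidney it called 3 claudins and 2263 of 18410 genes. Cldn2 in the cortical class was a call too (edgeR adjusted p = 0.0426), where 424 of 11714 genes were called. Deviations of same-numbered libraries correlated at 0.352, but with 2 pairs the numbers are not shown to pair the libraries. Calls on list genes, 1 as reported, were 3 by DESeq2, 6 without a filter, 9 with the block, 2 to 27 without 1 library (27 without untreated library 1, 10 without untreated library 2), and 0 without the proximal-rich 10% of nuclei or without the 10% highest doublet scores. Claudin differences between classes had 2 calls without a filter and 0 to 2 without 1 library, 2 without untreated library 1. Over all genes the 9 classes had 159 calls, 582 by DESeq2, 914 without a filter, 1654 with the block and 136 to 2405 without 1 library. Over all thick ascending limb nuclei the Cldn16 difference by Cldn10 was -9.70 points unthinned and -11.9 at 3000 UMIs, negative under every depth tried. Within the cortical class it was -7.19 ± 6.97 points unthinned, -5.66 ± 5.32 at 1000 UMIs and -11.1 ± 6.39 at 3000 UMIs. Without the 10% highest doublet scores it was -3.79 ± 4.66 points there, a spread between libraries larger than the difference. The class of the highest level held for 8 of 8 claudins, except that the mean over nuclei put Cldn2 highest in injured proximal tubule. Of 440 values of 40 single tests under alternatives, 28 changed sign and 11 became calls; 401 did neither.

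Sign changes when a library was left out gave these log2 ranges. For Cldn10 they were -0.38 to 0.41 in podocytes, -0.15 to 0.0014 in the proximal tubule, -0.12 to 0.18 in the thin descending limb, -0.34 to 0.046 in the thick ascending limb, -0.054 to 0.77 in the connecting tubule class and -0.049 to 1.03 in type B intercalated cells. For Cldn1 in the parietal epithelium the range was -1.38 to 0.067. In the thin descending limb it was -0.51 to 0.26 for Cldn2, -0.27 to 2.29 for Cldn4 and -0.66 to 1.87 for Cldn8. For Cldn16 in the thick ascending limb it was -0.012 to 0.17. For Cldn7 it was -0.55 to 0.20 in the thick ascending limb, -0.51 to 0.072 in the connecting tubule class, -0.26 to 0.16 in type A and -0.93 to 0.36 in type B intercalated cells. For Cldn8 it was -0.33 to 0.64 in type A and -0.96 to 0.52 in type B intercalated cells. Without a filter, Cldn10 stood at -0.014 in podocytes and -0.0035 in the thin descending limb, and Cldn8 at -0.011 in the thin descending limb. Cldn10 in podocytes stood at -0.0092 by DESeq2. Cldn8 stood at -0.0035 in the thin descending limb without proximal-rich nuclei and at -0.12 in type A intercalated cells without the highest doublet scores. The causes were not tested.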

Other observations

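Outside the epithelium, mural and mesangial nuclei had Cldn10 at 154 and 176 CPM in losartan libraries 1 and 2 and at 123 and 81.9 CPM in untreated libraries 1 and 2, above the 30.3 to 59.7 CPM of endothelial nuclei in every library. After thinning, 9.51% ± 3.08 of them held a Cldn10 UMI, against 7.25% ± 1.56 of endothelial nuclei (n = 4), which overlaps. Unthinned, the shares were 21.6% and 12.2%.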
